A study of Homo sapiens with 18 samples.

Results

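The peaks described here were called in miR-130a knockdown cells by both antibodies used to follow AML1-ETO, anti-ETO and anti-Flag, while the same places in control cells had an anti-Flag call and no anti-ETO call. They are termed Flag-to-dual peaks. They were selected on the calls themselves: intervals of the authors' knockdown-unique list that overlapped a control anti-Flag peak by at least 1 bp and no control anti-ETO peak. There were 2542 of them among the 4617 knockdown-unique peaks (55.1%, 95% Wilson interval 53.6 to 56.5), the 13712 knockdown dual-antibody peaks (18.5%) and the 35622 merged regions of the whole series. The lists behind the rule differ in length: anti-ETO had 14264 peaks in control and 22594 in knockdown, and anti-Flag 23162 and 25961. How far list length accounts for the calls cannot be told apart from the condition. Because the rule used the calls of all 4 single-antibody lists, the call pattern is a description and carries no test.

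The material was Kasumi-1, an acute myeloid leukaemia cell line carrying the t(8;21) translocation, in a version with Flag-tagged AML1-ETO. Control and miR-130a knockdown cells were both transduced, sorted as viable GFP-positive cells 3 days later and profiled by CUT&RUN, in which an antibody directs a nuclease to its target and the released DNA is sequenced. The series holds 18 libraries in 6 groups of 3 (control or knockdown, with anti-ETO, anti-Flag or mouse IgG). All libraries derive from 1 line, the labels do not say what the control vector carried, and the deposited lists give 1 set of positions per antibody and condition with no height, read number or replicate, so depth behind a call is unknown and no value can be given a spread over libraries.

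AML1-ETO joins the DNA-binding Runt domain of RUNX1 to most of ETO (RUNX1T1), a protein that recruits NCoR and histone deacetylase complexes. The Runt domain recognises the core TGTGGT, and in t(8;21) leukaemia the fusion sits at many sites shared with ETS, E-box and other myeloid factors. The Flag antibody sees only the tagged protein, and the ETO antibody can see any protein that carries its epitope. miR-130a is a microRNA whose gene lies on chromosome 11. The Flag-to-dual peak nearest to that gene lay 15973 bp from its hairpin, beside CLP1, which encodes an RNA kinase (hg38 chr11:57657260-57657553). The control anti-Flag call there was 203 bp wide, the knockdown anti-Flag call 236 bp and the knockdown anti-ETO call 238 bp, and the nearest control anti-ETO peak was 9378 bp away.

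Only a minority of Flag-to-dual peaks lay at promoters, and those show what DNA such a peak covered. Windows from 250 bases before to 50 after the starts of protein-coding genes, taken from RefSeq on GRCh38.p14, were overlapped by 232 of the 2542 peaks, which touched 270 windows. In 89 cases the peak covered the whole window. The 6 windows below are those inside the widest such peaks, since no window of a gene in the 5 gene lists used below was covered whole. Capitals mark the RUNX core TGTGGT, the ETS-type core GGAAGT and the GC box GGGCGG on either strand. They are printed 5′ to 3′ on the gene's strand.

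CCDC57, a coiled-coil protein gene, minus strand, window chr17:82212793-82213092, peak chr17:82211349-82213736:
CCDC57: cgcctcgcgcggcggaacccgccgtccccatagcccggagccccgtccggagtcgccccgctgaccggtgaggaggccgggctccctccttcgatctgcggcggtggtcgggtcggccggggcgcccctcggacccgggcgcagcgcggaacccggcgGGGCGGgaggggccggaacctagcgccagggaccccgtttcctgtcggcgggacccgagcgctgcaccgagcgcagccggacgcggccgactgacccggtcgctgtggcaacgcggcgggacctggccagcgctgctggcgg
SQSTM1, the autophagy receptor p62, plus strand, window chr5:179806143-179806442, peak chr5:179804849-179806501:
SQSTM1: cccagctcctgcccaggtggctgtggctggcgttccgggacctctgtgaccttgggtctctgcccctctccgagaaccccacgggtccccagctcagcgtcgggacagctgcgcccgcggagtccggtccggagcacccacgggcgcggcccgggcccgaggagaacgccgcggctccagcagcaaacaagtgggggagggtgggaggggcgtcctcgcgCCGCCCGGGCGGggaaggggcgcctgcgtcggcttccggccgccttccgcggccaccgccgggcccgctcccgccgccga
NADSYN1, which makes NAD, plus strand, window chr11:71452953-71453252, peak chr11:71451727-71453361:
NADSYN1: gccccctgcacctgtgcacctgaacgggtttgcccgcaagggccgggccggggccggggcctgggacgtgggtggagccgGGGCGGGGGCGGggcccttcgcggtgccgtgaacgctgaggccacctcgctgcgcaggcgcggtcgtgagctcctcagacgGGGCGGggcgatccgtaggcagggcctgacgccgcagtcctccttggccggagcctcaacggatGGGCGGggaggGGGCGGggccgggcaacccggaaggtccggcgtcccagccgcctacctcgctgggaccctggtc
PDE4A, a cyclic AMP phosphodiesterase, plus strand, window chr19:10432185-10432484, peak chr19:10431717-10433316:
PDE4A: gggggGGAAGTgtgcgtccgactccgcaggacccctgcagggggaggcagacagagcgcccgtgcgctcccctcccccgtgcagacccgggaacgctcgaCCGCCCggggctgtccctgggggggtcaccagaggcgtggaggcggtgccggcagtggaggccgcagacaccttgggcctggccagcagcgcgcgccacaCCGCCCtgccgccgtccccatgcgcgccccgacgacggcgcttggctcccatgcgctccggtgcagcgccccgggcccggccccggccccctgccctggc
ZNF563, a zinc finger gene, minus strand, window chr19:12333584-12333883, peak chr19:12332595-12334184:
ZNF563: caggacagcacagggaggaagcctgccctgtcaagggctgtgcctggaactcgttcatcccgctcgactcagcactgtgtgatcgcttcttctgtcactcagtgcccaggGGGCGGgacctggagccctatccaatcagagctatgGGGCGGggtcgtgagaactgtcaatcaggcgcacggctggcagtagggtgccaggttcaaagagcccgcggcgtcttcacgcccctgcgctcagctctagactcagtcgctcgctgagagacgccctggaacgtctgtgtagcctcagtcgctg
RETN, which encodes the secreted protein resistin, plus strand, window chr19:7668799-7669098, peak chr19:7668101-7669650:
RETN: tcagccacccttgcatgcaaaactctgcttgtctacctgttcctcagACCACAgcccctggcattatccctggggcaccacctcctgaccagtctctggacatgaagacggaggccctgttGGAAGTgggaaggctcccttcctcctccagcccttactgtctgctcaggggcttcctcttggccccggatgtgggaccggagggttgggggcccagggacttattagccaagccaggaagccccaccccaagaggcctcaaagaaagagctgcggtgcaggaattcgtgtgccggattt

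The printed windows differ in base composition. CCDC57 held 49 CpG dinucleotides, SQSTM1 38 and PDE4A 34, against 19 in ZNF563 and a median of 21 over all windows. The NADSYN1 window held 5 GC boxes and 34 CpG dinucleotides, with a G and C content of 76.7%. The RETN window held 1 RUNX core, 1 GGAAGT and no GC box, with 6 CpG and a G and C content of 59.7%. The other printed windows held no RUNX core. At RETN the widest control anti-Flag call was 342 bp, the knockdown anti-Flag call 834 bp and the knockdown anti-ETO call 800 bp. At NADSYN1 the control anti-Flag call was 431 bp and the knockdown one 363 bp, beside a knockdown anti-ETO call of 1421 bp, the widest of the 3.

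Across all 270 touched windows the GC box was the most frequent of the longer motifs. It was found in 202 (74.8%, 69.3 to 79.6), against 56.3% of all 22012 windows. The closest classes had similar shares. They were 74.75% of windows touched by knockdown-unique peaks without a control call and 72.2% of those touched by control anti-Flag peaks without anti-ETO. The share in the 4851 windows touched by peaks shared between conditions was 78.5%, and their median G and C content was 68.0% against 67.2% for Flag-to-dual windows and 62.3% for all. GGAAGT was present in 91 (33.7%, 28.3 to 39.5), against 23.9% of all windows, 26.9% of shared-peak windows and 29.4% of windows touched by control anti-Flag peaks without anti-ETO. In windows of peaks without a control call its share was 27.2% (21.6 to 33.8). The RUNX core was present in 26 (9.63%, 6.66 to 13.7), against 11.3% of all windows, 10.4% of shared-peak windows and 6.93% of windows of peaks without a control call. The longer form TGTGGTT, which contains the core, was found in 9 windows (3.33%) against 3.70% of all. CAGCTG, an E-box also counted in CANNTG, was present in 17.8% against 18.0%, and CANNTG in 57.4% against 65.1%. GATA was found in 35.6% against 43.6%, CCAAT in 33.7% against 34.7% and the AP-1 site TGANTCA in 4.07% against 6.16%. GGAA, contained in GGAAGT, was in 97.8% against 95.1%. Matches are letters in a fixed window, were not tested, and move with base composition.

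Most Flag-to-dual peaks lay away from the ends of genes. The centre of 759 (29.9%, 28.1 to 31.7) was within 1 kb of the start or end of any annotated gene, 1216 (47.8%) in the interior of a gene and 567 (22.3%) in none. Of the shared peaks, 60.3% (59.2 to 61.3) were within 1 kb of a gene end or start, a difference of -30.4 percentage points (-32.4 to -28.3, Fisher's exact test over peaks, two-sided, adjusted p = 6.6e-163). A further class, 2284 control-unique peaks, kept anti-ETO and lost anti-Flag in knockdown. It differs from Flag-to-dual peaks in the antibody that kept its call as well as in the condition. Of these 2284 peaks, 62.1% (60.1 to 64.1) were near a boundary, a difference of -32.3 percentage points (-34.9 to -29.6, Fisher's exact test, adjusted p = 1.6e-113). Against the 1760 knockdown-unique peaks that had no control call, no difference was found: 29.8% of those were near a boundary, and the difference of 0.029 percentage points has an interval of -2.77 to 2.79 (adjusted p = 1.0 by the same exact test, with Benjamini-Hochberg adjustment for the 3 comparisons). Peaks in a list are neither replicates nor independent of their neighbours, so these p-values compare lists and say nothing of other libraries. Shared and control-unique peaks have a control anti-ETO call by definition, and the rule excludes one. Of the 269 knockdown-unique peaks with a control anti-ETO call only, 61.3% were near a boundary. Among the 9846 control anti-Flag peaks without a control anti-ETO call, 2802 were. The differences of -30.4 and -32.3 percentage points therefore cannot be told apart from this selection.

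**Figure D1:**
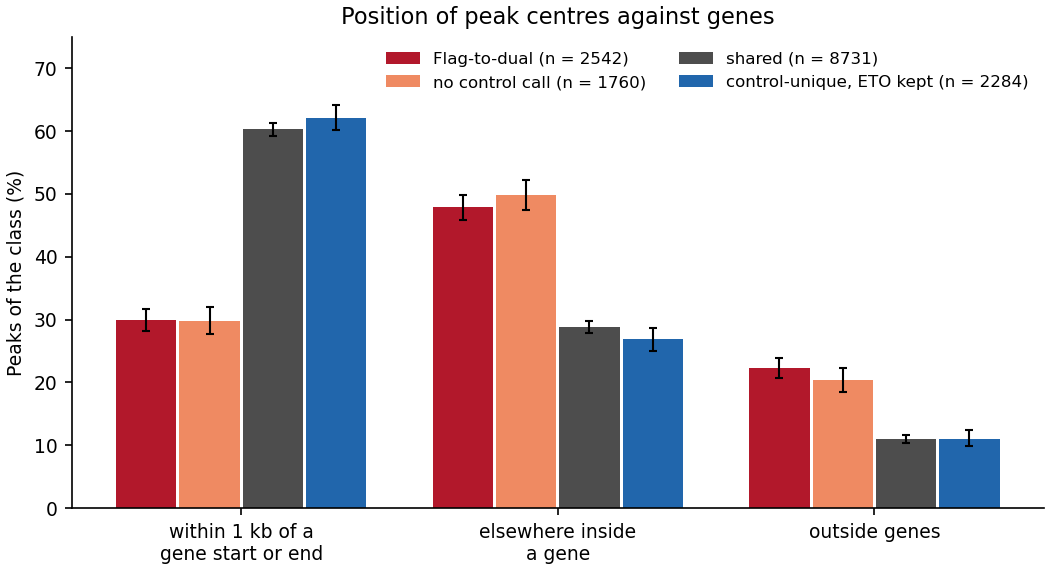
Share of peaks (%, bars start at 0) of 4 classes by the position of the peak centre against annotated genes, with 95% Wilson intervals over peaks. Flag-to-dual peaks and knockdown-unique peaks without a control call are near a gene start or end in 29.9% and 29.8% of cases, against 60.3% of shared and 62.1% of control-unique peaks that kept anti-ETO.

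The difference from shared peaks was of the same order on the 4 chromosomes that earlier results had singled out and on the rest. On chromosomes 19, 17, 11 and 16 28.1% of Flag-to-dual and 57.0% of shared peaks were near a boundary (difference -28.9 percentage points). On the other chromosomes the shares were 31.6% and 61.9% (difference -30.4 percentage points). Inside protein-coding genes of known strand, cut into 4 equal segments, 43.8% of 1140 Flag-to-dual peaks lay in the first segment, 21.7% in the second, 18.9% in the third and 15.7% in the last. Shared peaks were in the first segment in 65.1% of 4269 cases, and peaks without a control call in 46.4% of 863.

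Flag-to-dual peaks were concentrated on a few chromosomes. Chromosome 19 held 430 (16.9%), chromosome 17 held 386 (15.2%), chromosome 11 held 237 (9.32%), and chromosomes 1 and 16 held 209 each (8.22%). Chromosome 18 held 2, chromosome 13 held 9 and chromosome 2 held 39 (1.53%). Of all control anti-Flag peaks, from which these sites come, 11.8% were on chromosome 19, 10.1% on chromosome 17 and 4.25% on chromosome 2. Chromosome 11 held 6.9% of them, chromosome 16 6.7% and chromosome 1 9.83%. Chromosome 1 thus had a smaller share of Flag-to-dual peaks than of control anti-Flag peaks. Chromosome 8 held 152 Flag-to-dual peaks (5.98%), against 4.27% of control anti-Flag peaks and 3.07% of knockdown-unique peaks without a control call. Of the latter class, 18.5% were on chromosome 19, a larger share than of Flag-to-dual peaks, and 11.6% on chromosome 17, a smaller one. Chromosomes 19, 17, 11 and 16, a set chosen with such counts known, together held 49.6% (47.7 to 51.6) of Flag-to-dual peaks, 46.3% (44.0 to 48.6) of knockdown-unique peaks without a control call, 34.1% (33.1 to 35.1) of shared peaks and 21.2% (19.6 to 22.9) of control-unique peaks that kept anti-ETO.

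**Figure D2:**
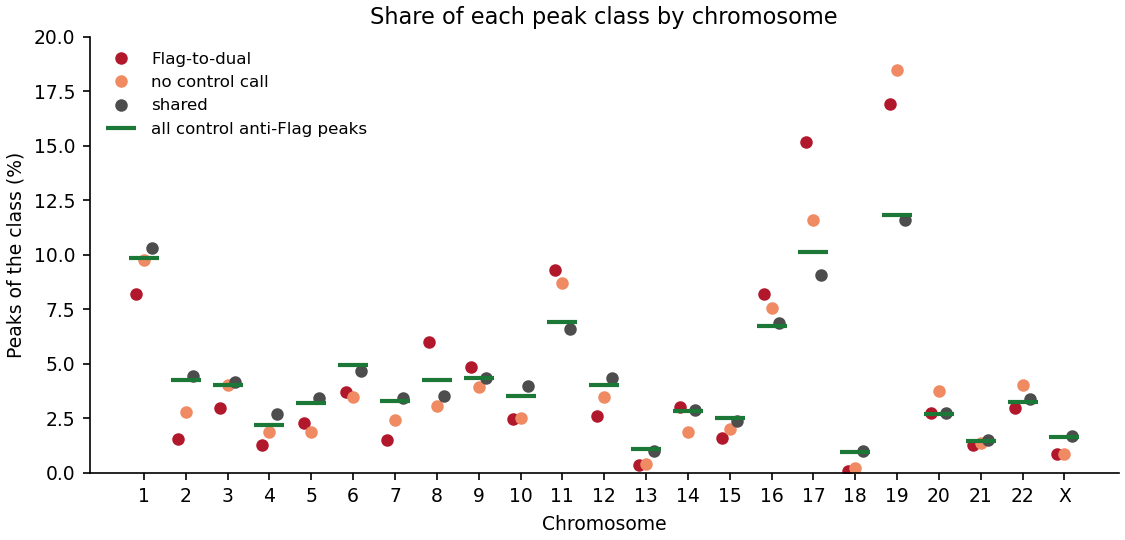
Share of each peak class (%) on each chromosome, as points for 3 classes and a dash for all 23162 control anti-Flag peaks. Flag-to-dual peaks exceed the anti-Flag share on chromosomes 8, 11, 16, 17 and 19 among others, and fall below it on chromosomes 2, 4, 7, 13 and 18, among others.

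The calls that the rule used can be counted by chromosome over the control anti-Flag peaks. Of the 23162, 9846 had no control anti-ETO call, and of these 4657 (47.3%, 46.3 to 48.3) met a knockdown anti-ETO peak, 4551 (46.2%, 45.2 to 47.2) met a knockdown anti-Flag peak, 3001 (30.5%) met both and 3639 (37.0%) neither. A Flag-to-dual site needs both. From chromosome to chromosome the share with a knockdown anti-ETO call ran from 39.1% on chromosome 18 to 53.4% on chromosome X, with a median of 47.1%. The share with a knockdown anti-Flag call ran from 17.4% on chromosome 18 to 71.2% on chromosome 8, with a median of 36.6%. It was 61.3% on chromosome 11, 57.7% on chromosome 17, 55.3% on chromosome 19 and 53.1% on chromosome 16, and 20.4% on chromosome 2 and 24.3% on chromosome 7. The chromosomes thus differed far more in whether the anti-Flag call was found again than in whether an anti-ETO call appeared. For scale, 2609 of all 13712 knockdown dual-antibody peaks (19.0%) had the pattern of a control anti-Flag and no control anti-ETO call, of which the deposited knockdown-unique list holds the 2542.

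**Figure D3:**
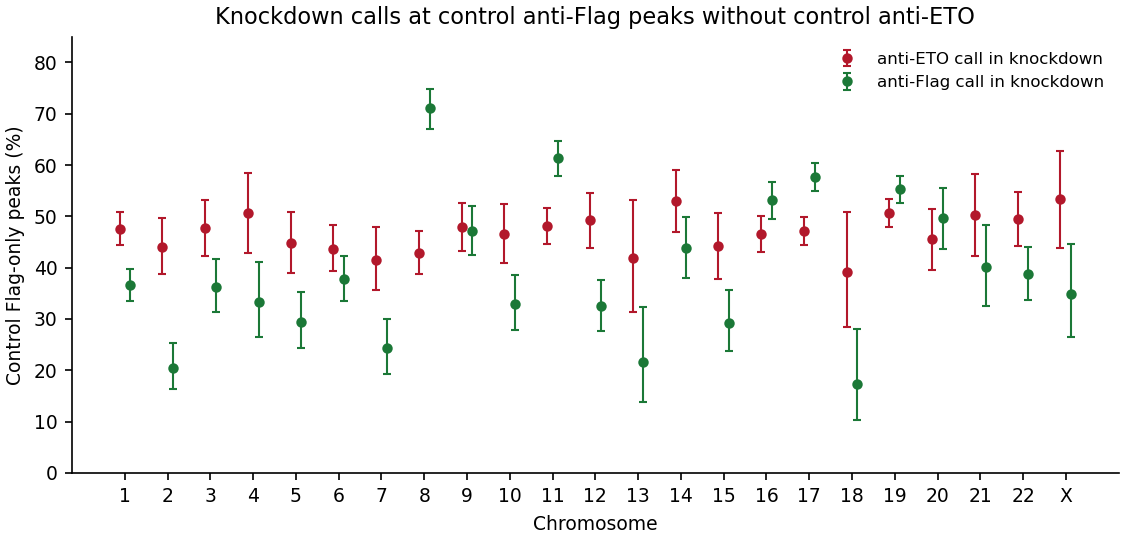
For each chromosome, the share (%) of control anti-Flag peaks without a control anti-ETO call that overlapped an anti-ETO or an anti-Flag peak in knockdown, with 95% Wilson intervals over peaks. The anti-ETO share stays between 39.1% and 53.4%, while the anti-Flag share spreads from 17.4% to 71.2%.

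Position and width of the control anti-Flag peak went with what was called there in knockdown. Within 1 kb of a gene start or end, 59.0% (57.1 to 60.8) of the 2802 control anti-Flag peaks without anti-ETO had a knockdown anti-ETO call, and 42.7% (40.8 to 44.5) had a knockdown anti-Flag call. Elsewhere the order was the opposite, with 42.7% (41.5 to 43.8) for anti-ETO and 47.6% (46.5 to 48.8) for anti-Flag among 7044 peaks. Both calls were found at 33.4% near boundaries and at 29.3% elsewhere. By width, both calls were found at 17.8% of the narrowest quartile (up to 225 bp), 22.5% of the second, 31.9% of the third and 49.9% of the widest quartile (over 419 bp). A wider peak also meets another more easily, and its part in the increase was not tested.

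**Figure D4:**
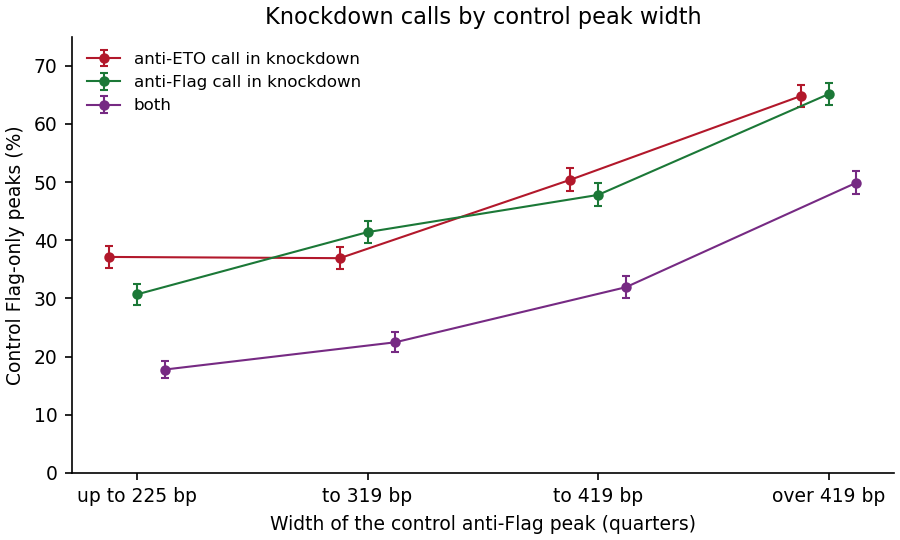
Share (%) of the 9846 control anti-Flag peaks without a control anti-ETO call that had an anti-ETO call, an anti-Flag call or both in knockdown, by quartile of control peak width, with 95% Wilson intervals over peaks. The share with both rises from 17.8% in the narrowest to 49.9% in the widest quartile.

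Flag-to-dual intervals were 175 to 7112 bp wide with a median of 572 bp (quartiles 422 and 796), against 437 bp for knockdown-unique peaks without a control call and 1047 bp for shared peaks, whose intervals join both conditions. The calls behind them were of similar size: the median width was 393 bp for control anti-Flag, 433 bp for knockdown anti-Flag and 428 bp for knockdown anti-ETO, taking the widest call where several overlapped. A single control anti-Flag peak lay behind 2372 of the 2542, a single knockdown anti-Flag peak behind 2466 and a single knockdown anti-ETO peak behind 2449. The knockdown anti-Flag call was wider than the control one at 1509 (59.4%) and narrower at 1016 (40.0%), with a median log2 ratio of knockdown to control width of 0.15 (0.10 to 0.19, binomial interval of the median over peaks). At shared peaks the same median was -0.21, with the knockdown call narrower at 70.3% of 8731, and over all 14390 control anti-Flag peaks with a knockdown anti-Flag call it was -0.08. The direction at Flag-to-dual peaks was thus opposite to that of the list as a whole. Since the rule used these calls, this is a description.

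**Figure D5:**
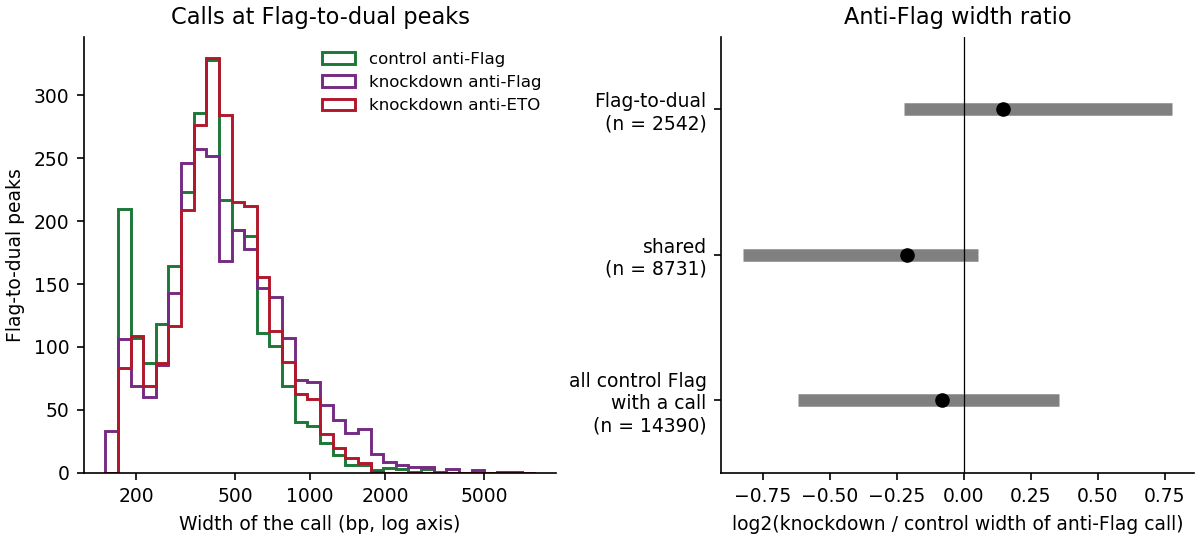
Left, widths (bp, log axis) of the widest control anti-Flag, knockdown anti-Flag and knockdown anti-ETO call at each of the 2542 Flag-to-dual peaks. Right, log2 ratio of knockdown to control anti-Flag width, median (point) and quartiles (bar): 0.15 for Flag-to-dual peaks, -0.21 for shared peaks and -0.08 for all control anti-Flag peaks with a knockdown call.

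At the edge of the rule, the member closest to a control anti-ETO peak was 75 bp away from it, and 383 (15.1%) were within 500 bp. The median distance was 3156 bp (quartiles 928 and 9735), and 625 (24.6%) were more than 10 kb from any control anti-ETO peak. Just outside the rule, 46 knockdown-unique peaks overlapped control peaks of both antibodies, by 26 to 839 bp for anti-ETO with a median of 225.5 bp. The control anti-Flag overlap of members ran upward from 7 bp, and was under 100 bp at 47 (1.85%). Within 10 kb of a shared peak lay 71.5% (69.7 to 73.2) of Flag-to-dual peaks and 55.9% (53.5 to 58.2) of knockdown-unique peaks without a control call. Flag-to-dual peaks also lay near each other: 1106 (43.5%, 41.6 to 45.4) were within 10 kb of another, against 18.9% (17.1 to 20.8) of the 1760 peaks without a control call, a smaller class in which neighbours are fewer by number alone. Of the 8731 shared peaks, the largest class, 52.9% were within 10 kb of another shared peak, a higher share than that of Flag-to-dual peaks.

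Flag-to-dual peaks also formed dense stretches. On a grid of 1 Mb, 516 bins held a Flag-to-dual peak, 197 of them only 1, and the 5 fullest bins held 295 (11.6%, 10.4 to 12.9), against 5.68% (4.69 to 6.86) of peaks without a control call and 4.01% (3.62 to 4.44) of shared peaks. The bins were chosen for their Flag-to-dual count, so these shares are a description. The fullest, on chromosome 17 from 81000001 to 82000000, held 77 and 78 shared peaks. The neighbouring bins of chromosome 8 from 143000001 to 145000000 held 74 and 51. The bin of chromosome 19 from 1000001 to 2000000 held 50, and that of chromosome 11 from 65000001 to 66000000 held 43. In the bin of chromosome 17, anti-Flag peaks numbered 296 in control and 446 in knockdown, and anti-ETO peaks 103 and 219. In the second of the chromosome 8 bins the numbers were 212 and 432 for anti-Flag, and 58 and 141 for anti-ETO. Of the control anti-Flag peaks without anti-ETO in that bin, 90.6% had a knockdown anti-Flag call and 38.3% a knockdown anti-ETO call. Within the 5 bins the anti-Flag call at Flag-to-dual peaks went from a median of 472 bp in control to 734 bp in knockdown (median log2 ratio 0.56), and outside them from 386 to 416 bp (0.09). The knockdown lists of both antibodies were longer than the control lists in all 5 bins, as they were over the whole series. For anti-ETO this follows in part from choosing the bins by their Flag-to-dual count.

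The 5 widest peaks all lay in the first of the chromosome 8 bins, and in each a single broad knockdown anti-Flag call spanned several narrower control calls. The widest (hg38 chr8:143649463-143656574, 7112 bp) overlapped ZNF623, a zinc finger gene. It held 4 control anti-Flag peaks of up to 2627 bp, 1 knockdown anti-Flag peak of 7112 bp and 5 knockdown anti-ETO peaks of up to 970 bp. The second (chr8:143620362-143626001) overlapped the noncoding gene LOC105375798, and the third (chr8:143639577-143644064) overlapped ZNF623 again. The fourth (chr8:143906191-143910651) lay 4501 bp from PLEC, which encodes the cytoskeletal linker plectin, and the fifth (chr8:143656854-143660726) lay 2391 bp from LOC105375799. Of the 37 Flag-to-dual peaks of at least 2 kb, 19 were on chromosome 8. The widest elsewhere (chr19:792114-795949, 3836 bp) lay 1502 bp from PTBP1, a splicing regulator, with a control anti-Flag call of up to 479 bp, a knockdown anti-Flag call of 3743 bp and a knockdown anti-ETO call of up to 1589 bp.

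With a window of each gene plus 10 kb on either side, 2259 of 19974 protein-coding genes (11.3%) had a Flag-to-dual peak. Of these, 1521 had 1, 445 had 2 and 61 had 5 or more. A control dual-antibody peak was present within the same distance at 1986 of the 2259 (87.9%), against 43.8% of all protein-coding genes, and 240 had no control anti-ETO peak there at all. Most of these genes therefore already had a dual-antibody site nearby in control. Knockdown-unique peaks without a control call were also present at 814 (36.0%), against 9.85% of all protein-coding genes.

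The 10 genes with the most Flag-to-dual peaks lay on chromosomes 8, 11, 14, 16 and 17. BAHCC1, a chromatin protein gene on chromosome 17, had 15, beside 14 shared peaks, and its anti-ETO peaks numbered 25 in control and 48 in knockdown. IQANK1 on chromosome 8 had 12, with 1 shared peak, 1 control anti-ETO peak and 14 knockdown anti-ETO peaks. Its anti-Flag peaks numbered 32 in control and 41 in knockdown. The 10 genes were named for their Flag-to-dual count, and each such peak gains an anti-ETO call by the rule. More anti-ETO peaks in knockdown at these genes therefore follow from the selection. GSE1, a subunit of a histone deacetylase complex, and SEPTIN9, a cytoskeletal GTPase, had 11 each. BRF1, a subunit of the RNA polymerase III initiation factor, had 9, as did PACS2, a sorting protein beside it on chromosome 14, CCDC57, PARP10 and KRTAP5-6. ANKRD11, a chromatin regulator, had 8. The span of KRTAP5-6 is mostly flank, since the gene itself is 561 bp long, and it held 2 control and 15 knockdown anti-ETO peaks. Windows of neighbouring genes overlap, so 1 peak can count for several genes.

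How genes linked to AML1-ETO or to myeloid cells compared with other genes depended on the window. Of 71 in 5 lists, 9 had a Flag-to-dual peak within 10 kb (12.7%), against the 11.3% of all protein-coding genes given above. In the gene body alone 8 of the 71 had one (11.3%), against 5.91% of all. The listed genes were longer, with a median of 37865 bp against 24170.5 bp for all protein-coding genes. A longer body meets a peak more easily, and the part of length was not tested. A control dual-antibody peak, in contrast, was present at 55 of the 71 (77.5%), against the 43.8% of all. Of the 7 RUNX and ETO family genes only RUNX3 had a Flag-to-dual peak. Of 19 partner factors TCF3 had one, among 10 NCoR corepressor genes GPS2 did, of 20 myeloid and stem cell genes AZU1, PRTN3, ELANE and ITGAM, and of 15 growth and survival genes OGG1. RUNX1 itself, which encodes the DNA-binding part of the fusion, had 0, with 8 shared peaks and 12 anti-ETO peaks in control and 16 in knockdown. TBL1XR1, an NCoR subunit, and MPO, which encodes myeloperoxidase, also had 0.

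PRTN3 and ELANE on chromosome 19 held the most among the listed genes, with 5 each, and their windows overlap and share peaks. AZU1 beside them had 1. CTSG and LYZ, listed granule protein genes on other chromosomes, had 0. At CTSG, dual-antibody peaks numbered 1 in control and 0 in knockdown. AZU1, PRTN3 and ELANE encode the granule proteins azurocidin, proteinase 3 and neutrophil elastase and lie next to each other, followed by CFD, which encodes complement factor D. The 48.4 kb from 10 kb before AZU1 to 10 kb after ELANE held 6 Flag-to-dual peaks. Anti-ETO peaks in this span numbered 5 in control and 15 in knockdown, anti-Flag peaks 20 and 24, and dual-antibody peaks 4 and 12. Each Flag-to-dual peak gains an anti-ETO call by the rule, so part of this increase follows from the selection. Such an increase was not particular to the span. The nearby bin of chromosome 19 from 1000001 to 2000000 held 50 Flag-to-dual peaks, with 107 anti-ETO peaks in control and 204 in knockdown. One Flag-to-dual peak overlapped ELANE (chr19:851802-852459), with a control anti-Flag call of 224 bp, a knockdown anti-Flag call of 547 bp and a knockdown anti-ETO call of 657 bp. Another lay 1092 bp from ELANE (chr19:850476-851210), with calls of 557, 735 and 565 bp in the same order, and the third lay 725 bp from it on the other side (chr19:856969-857453), with calls of 426, 202 and 485 bp. The peak inside PRTN3 (chr19:844649-844936) had calls of 194, 216 and 288 bp. The widest of the 6 (chr19:833007-834596) lay 988 bp from AZU1, with calls of 636, 1590 and 777 bp. The last (chr19:863649-864241) lay 7 bp from CFD, with calls of 200, 241 and 529 bp. The span also held 3 shared peaks, 2 knockdown-unique peaks without a control call, 1 with both control calls and 1 control-unique peak that kept anti-ETO.

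The other listed genes with a Flag-to-dual peak had 1 or 2 each. At GPS2, a small NCoR subunit, the peak over the gene (chr17:7314571-7315598) had a control anti-Flag call of 470 bp, a knockdown anti-Flag call of 378 bp and a knockdown anti-ETO call of 1028 bp. A second, 8786 bp away, lay in NEURL4. The RUNX3 peak (chr1:24955174-24955563) had a control anti-Flag call of 445 bp, a knockdown anti-Flag call of 383 bp and an anti-ETO call of 335 bp, 22524 bp from the nearest control anti-ETO peak. In TCF3, which encodes an E-protein partner of the fusion, the peak (chr19:1624383-1624855) had calls of 327, 451 and 371 bp in the order used for ELANE. The peak in ITGAM, the integrin CD11b of mature myeloid cells (chr16:31263282-31263678), had calls of 582, 362 and 377 bp. At OGG1, a DNA repair glycosylase, a peak inside the gene (chr3:9754428-9755436) had calls of 775, 1009 and 927 bp, and another 2579 bp away lay in BRPF1 (chr3:9746404-9747372). No value here tells whether transcription of these genes differed.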

How the data were processed

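The 18 CUT&RUN libraries were grouped by condition and antibody from the sample titles. Libraries were sequenced as 75-bp paired reads from fragments of 150 to 400 bp, with about 40 M reads planned each, per the labels' protocols. The submitters' processing notes name fastp 0.19.5, Bowtie2 2.3.5, MACS2 2.2.5, HOMER 4.8 and the builds hg38 and sacCer3, without roles. Threshold, use of IgG and pooling of replicates are not given in the sources used here. The deposited files are 9 lists of positions with no score. They were used as deposited. A more permissive threshold or deeper library lengthens a list and thereby makes unique peaks.

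Overlaps of at least 1 bp counted as calls. Positions are printed from 1, on hg38. Genes came from RefSeq on GRCh38.p14 (59098 on chromosomes 1 to 22 and X, of which 19974 are protein-coding). Strands and starts were found for 15812 of 19259 protein-coding genes. Chromosome 8 was not used in strand, start and promoter counts. Shares carry 95% Wilson intervals and differences Newcombe intervals, both for counting error only. Shares near genes were compared by two-sided Fisher's exact tests with Benjamini-Hochberg adjustment. Python 3.11.15, scipy 1.17.1 and statsmodels 0.14.6 were used, and the functions were tested on simulated intervals (8 of 8 checks passed). Named items are the 5 widest peaks, the 5 fullest bins of 1 Mb, the 10 genes with the most peaks, the peaks at genes of 5 lists (one result is not reported here), and promoter windows inside peaks, first of listed genes and then by peak width. The widest peak off chromosome 8, the CLP1 peak and the comparisons of control anti-Flag peaks were chosen after their values were seen. The members and lists were chosen with earlier results of these data known.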

Additional observations from a re-analysis of the deposited data

How the results depend on the processing

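Both differences from shared peaks and from control-unique peaks that kept anti-ETO held their direction and stayed past the threshold in all 8 alternatives each, from -35.8 to -21.0 and from -34.3 to -19.2 percentage points. The difference of 0.029 percentage points from peaks without a control call passed the threshold in none and changed sign in 4: it was -0.17 with a boundary of 500 bp, -0.24 with 2.5 kb, -0.87 with protein-coding genes only and -1.67 with starts of protein-coding genes only (adjusted p from 0.17 to 0.95 over its alternatives, Fisher's exact test). The last setting, and leaving out the end of chromosome 8, were chosen after seeing the data.

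The number of Flag-to-dual peaks depended most on list length. With all 4 lists shortened by width to the 14264 peaks of the shortest and the derived lists rebuilt, it fell to 932 of 2109 knockdown-unique regions (44.2%), of which 930 overlapped an original one. This setting keeps fewer peaks by construction. The share on chromosomes 19, 17, 11 and 16 was 46.3% with peaks within 10 kb merged, 52.7% for the wider 50% and 52.3% without the end of chromosome 8. Genes with a peak numbered 1181 in the body alone and 4040 within 50 kb. The 71 listed genes, which are longer at the median, had one at 11.3% against 5.91% of all genes in the body, and 23.9% against 20.2% within 50 kb. No paired analysis was possible because the lists carry no replicate, and leaving out a library was not possible for the same reason.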

Other observations

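Flag-to-dual peaks also met microRNA genes. Of 1558 annotated hairpins with a sequence in RefSeq, 8 overlapped one (0.513%), against 79 for shared peaks and 1 for knockdown-unique peaks without a control call. The classes differ in size, so these counts cannot be compared directly. The 2542 Flag-to-dual peaks covered 1730 kb, the 8731 shared peaks 11040 kb and the 1760 peaks without a control call 866 kb. The 8 hairpins were MIR152, MIR330, MIR3186, MIR3621, MIR3939, MIR4487, MIR4748 and MIR6745. The MIR152 hairpin lies in COPZ2, a coatomer gene, and its peak (chr17:48036907-48037664) had a control anti-Flag call of 613 bp, a knockdown anti-Flag call of 751 bp and a knockdown anti-ETO call of 432 bp, 9088 bp from the nearest control anti-ETO peak. At MIR330, in EML2 (chr19:45638991-45639493), the calls were 570, 225 and 502 bp in the same order. The MIR3186 peak lay in BAHCC1 (chr17:81449837-81451583), with calls of up to 1060, 1747 and 617 bp. These hairpins were looked at after the peaks were known, and no value per microRNA was measured.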
